A study of Mus musculus with 4 samples.

Results

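The cells described here are fibroblasts of mouse gingiva, the gum tissue around the teeth, after removal of cells that carry messages of bone-forming cells. They were chosen by their own counts of unique molecular identifiers (UMIs, the tags that count single messenger RNA molecules). A cell needed at least 10 UMIs of the collagen genes Col1a1, Col1a2 and Col3a1 together and at least 2 of Dcn, Lum and Pdgfra. It also needed fewer than 2 UMIs of the bone genes Bglap, Ibsp, Dmp1 and Sp7, fewer than 5 of the cartilage genes Col2a1, Acan and Cytl1, fewer than 2 of Rgs5, fewer than 2 of Pecam1 and Cdh5, and fewer than 5 of Krt5 and Krt14. Of 31150 barcodes with at least 200 genes and at most 20% mitochondrial UMIs, 455 met the rule.

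The study put a silk ligature and Porphyromonas gingivalis, a bacterium of gum disease, on an upper molar of transgenic mice and took the gingiva after 14 days. Its 4 single-cell libraries cross the genotypes Itga9-Lyz2-cHet and Itga9-Lyz2-cKO with the treatments control and PD, the label of the disease arm, and are called cHet_control, cHet_PD, cKO_control and cKO_PD below. The genotype names pair Itga9, which encodes integrin alpha9, with Lyz2, a gene of myeloid cells whose promoter is widely used to drive Cre recombinase, so that both genotypes carry the alteration and no library is from unaltered mice. Age, strain, sex and the number of animals behind each library are not given in the sources used here. Each group is 1 library, so no difference between groups could be tested: every interval below is a 95% interval for counting error only, and differences between animals cannot be told apart from differences between groups.

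Gingival fibroblasts build and renew the collagen-rich connective tissue that holds gum to tooth and bone. They also act as sentinels: bacterial products and cytokines such as interleukin-1 and tumour necrosis factor switch on NF-kB, AP-1 and C/EBP factors, which drive chemokines that call neutrophils and monocytes, and proteases that cut collagen. Through RANKL (gene Tnfsf11) and its decoy osteoprotegerin (Tnfrsf11b), fibroblasts and bone-forming cells set how many osteoclasts form, which is why bone cells among fibroblasts matter in this tissue.

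The rule gave 102 cells in cHet_control, 227 in cHet_PD, 73 in cKO_control and 53 in cKO_PD. These were 1.29% (exact Clopper-Pearson interval 1.05 to 1.56), 2.53% (2.22 to 2.88), 0.951% (0.747 to 1.19) and 0.804% (0.603 to 1.05) of the kept barcodes. In the cHet genotype the share in PD was 1.96 times that in control (1.55 to 2.51). In the cKO genotype it was 0.845 times (0.582 to 1.22), and without the bone filter its log2 ratio turned from -0.243 to 0.468. The deposited barcodes start at 1501 UMIs per cell in the controls but at 500 in the PD libraries, and shares also follow how the tissue was cut and digested, so they are given as descriptions. The fibroblasts' median depth was 6342, 4113, 5877 and 2886 UMIs per cell in the order above, and their summed UMIs were 694908, 1070125, 474922 and 189177. The 50 UMIs needed for a call therefore stand for 72.0, 46.7, 105 and 264 CPM (a gene's UMIs divided by all UMIs of these cells and scaled to the usual fixed total), and a gene that was low in cKO_PD could be called only from the other side.

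The collagen threshold sat far below most of these cells. Median UMIs of the 3 collagen genes were 154, 205, 81 and 384 per cell. Cells just inside the threshold, with 10 to 19 UMIs, numbered 2, 14, 4 and 0, and cells just outside it, with 5 to 9, numbered 0, 4, 1 and 0. The bone filter removed most cells from cKO_PD, 35, against 6 in cHet_control, 10 in cHet_PD and 1 in cKO_control. Of those 35 cells, 11 held 2 to 4 UMIs of the bone genes and 24 held 5 or more, while 4 of the 53 retained cells held 1. The collagen genes of the rule made up 3.14%, 8.64%, 1.97% and 13.2% of all UMIs of the chosen cells, which is a property of the choice and supports nothing.

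Markers outside the rule fit the name fibroblast. The 12 fibroblast markers that the rule did not use, among them Col6a1, Fbn1, Mmp2 and Thy1, summed to 13444, 17427, 10715 and 17555 CPM, and none was at 0 in any library. In cKO_PD, bone-forming cells held Col6a1 at 891 CPM against 3484 CPM in the fibroblasts, and Fbn1 at 58.7 against 825 CPM. The fibroblast marker sum therefore does not by itself show that bone-forming cells were absent. The 8 markers of bone-forming cells outside the rule held 70, 21, 17 and 21 UMIs, from 19.6 CPM in cHet_PD to 111 CPM in cKO_PD. Endothelial markers summed to 44.6, 63.5, 6.32 and 0 CPM and mononuclear phagocyte markers to 28.8, 7.48, 4.21 and 5.29 CPM. Keratinocyte markers reached 3816, 5108, 1836 and 3832 CPM, with Krt10 the largest contributor in each library. In cKO_PD, chondrocyte markers stood at 264 CPM, with 35 of the 50 UMIs from Hapln1, against 7.48 to 44.2 CPM elsewhere. Leukocyte markers stood at 1242 CPM there, against 6.32 to 55.1, and 199 of the 212 UMIs of S100a8 and S100a9 lay in 3 cells. In cKO_control, 54 of 73 fibroblasts (74.0%) held a UMI of 9 genes of nasal and glandular secretions such as Mup4 and Obp1a, and so did 78.6% of its keratinocytes, against at most 0.41% of keratinocytes elsewhere. That library thus stood apart from the other 3, in keratinocytes as well as in fibroblasts, and the source of these messages was not tested. No fibroblast barcode was shared between libraries. The part of these differences in the results below was tested only as far as the values without those cells show.

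Itga9, the targeted gene (ENSMUSG00000039115, chromosome 9, 118606690 to 118901003, mm10), was read in the fibroblasts at 67, 17, 16 and 13 UMIs, or 96.4, 15.9, 33.7 and 68.7 CPM. The alteration is aimed at myeloid cells, so fibroblast counts do not check the genotype. Within cHet the level in PD was 6.07-fold lower (interval 3.52 to 11.0), while within cKO it was 2.04 times the control level with an interval of 0.903 to 4.52 that spans no change. Itgb1, the beta1 chain that pairs with alpha9, was at 691, 752, 636 and 941 CPM, and its PD-to-control ratio was 1.09 (0.971 to 1.22) in cHet. In mononuclear phagocytes the counts of Itga9 were 23, 79, 14 and 7 UMIs, or 66.5, 81.4, 35.3 and 17.3 CPM.

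In the cHet genotype, fibroblasts in PD carried more message for neutrophil chemokines, inflammatory effectors, proteases and collagens and less for genes of resting connective tissue. Of 3798 genes with 50 UMIs in either library, 485 (12.8%) were at least 2-fold higher in PD and 479 (12.6%) at least 2-fold lower, with 10 CPM added and an interval that excluded 1. For gene lists a looser rule was used, 1.5-fold with 20 UMIs over the pair, under which 18.3% of 8252 measured genes were higher and 23.3% lower, with a median log2 fold of -0.06. In the cKO genotype, 158 of 1780 genes (8.88%) were 2-fold higher in PD and 463 (26.0%) lower. Under the looser rule 16.2% of 5455 measured genes were higher and 32.7% lower, with a median log2 fold of -0.21. Leaving out the cells with secretion tracers or S100a8 or S100a9 UMIs left 19 cells in cKO_control and 39 in cKO_PD, and the cKO counts were then 97 higher and 119 lower. Scaling by TMM moved log2 values by 0.14 in the cHet pair and 0.12 in the cKO pair.

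Of the genes called higher in PD, 66 were called in both genotypes, which is 13.6% of the cHet calls and 41.8% of the cKO calls. Of those called lower, 208 were shared, 43.4% and 44.9%. Over all tested genes, 12.8% were called higher and 12.6% lower in cHet, and 8.88% and 26.0% in cKO. Only 1780 genes were tested in cKO against 3798 in cHet, so a gene called in cHet could be untested in cKO. The shares thus have unlike bases, and the overlap cannot measure a difference between genotypes. The pairs share no library, and 15 genes were called in opposite directions.

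**Figure D1:**
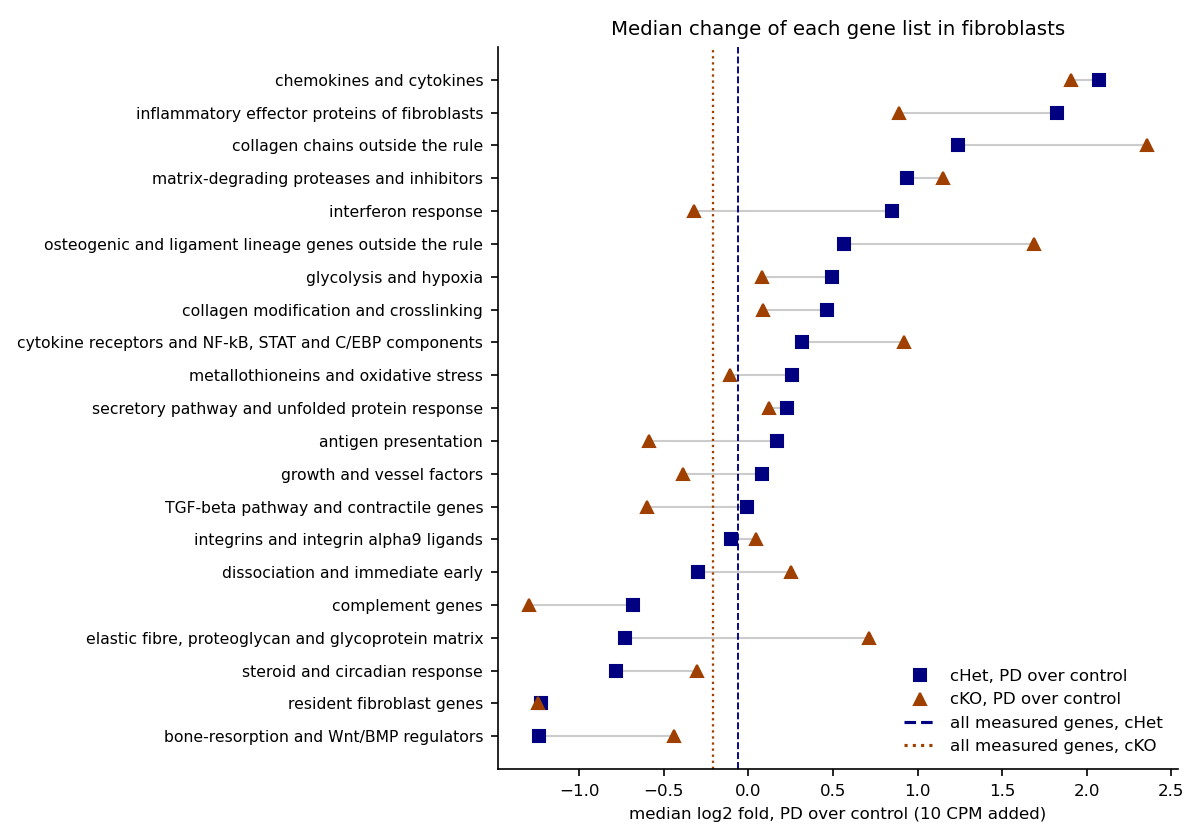
Median log2 fold of each gene list in fibroblasts, PD over control with 10 CPM added, for cHet (squares) and cKO (triangles); vertical lines give the medians of all measured genes, -0.06 and -0.21. Chemokines, effectors, collagens and proteases lie to the right in both genotypes, and resident fibroblast genes lie to the left in both.

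Chemokines and cytokines stood furthest from the background in cHet: 19 of 22 measured members were higher in PD and 1 lower, with a median log2 fold of 2.07. In cKO, 10 of 14 were higher and 3 lower, with a median of 1.91. Cxcl1, which attracts neutrophils through the receptor CXCR2, was at 796 CPM in cHet_control, 4311 in cHet_PD, 162 in cKO_control and 1078 in cKO_PD. Both PD libraries exceeded their own control, by 5.42-fold (4.96 to 5.93) in cHet and 6.65-fold (5.09 to 8.76) in cKO, although cKO_PD was close to the cHet control. With every cell thinned to 1500 UMIs, Cxcl1 was detected in 30.4%, 66.7%, 12.3% and 31.0% of fibroblasts (43.1%, 76.2%, 16.4% and 41.5% unthinned). Keratinocytes, also a source of this chemokine, gave 8.39%, 16.6%, 7.51% and 17.1% when thinned, from median depths of 5660, 4802, 5553 and 2838.5 UMIs.

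Cxcl5, a close relative of Cxcl1, was at 28.8, 1207, 331 and 566 CPM. Its ratio in cHet was 41.9 (27 to 68.9) and in cKO 1.71 (1.33 to 2.2), where the control library was already high. Cxcl2 was at 17.3, 571, 0 and 95.1 CPM, a 33.1-fold difference in cHet (18.8 to 64.3) and at least 15.1-fold in cKO against the 3 UMIs that a count of 0 allows. The cKO difference rested on 18 UMIs and was not called. The monocyte chemokines Ccl2 and Ccl7, which were picked out after their values were seen, were at 314, 3206, 168 and 597 CPM and at 131, 1161, 25.3 and 275 CPM. For both, cHet_PD was the highest library and cKO_PD the next.

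Interleukin-6, a cytokine of the acute phase that also raises RANKL, had its gene Il6 at 66.2 CPM in cHet_control, 508 in cHet_PD, 23.2 in cKO_control and 412 in cKO_PD. The ratios were 7.68 (5.68 to 10.6) and 17.8 (9.42 to 37.1), and the 2 PD libraries did not differ beyond counting error, with cHet_PD 1.23 times cKO_PD (0.971 to 1.58). Lif, of the same cytokine family, was at 4.32, 55.1, 0 and 174 CPM, so that here cKO_PD was the highest library. Its level there rested on 33 UMIs, and the difference from cKO_control was not called. Cxcl12, which retains blood cell precursors and is typical of resting stroma, was at 275, 387, 773 and 581 CPM and was called in neither genotype.

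NF-kB and AP-1 are known to act through promoter sites of inflammatory genes, and stretches of 120 bases upstream of the RefSeq start (build GRCm38.p6, plus strand, 5′ to 3′) are printed for 4 genes the results turn on. Capitals mark the NF-kB consensus in Cxcl1 (chr5:90891125-90891244, 71 bases upstream of the start) and Il6 (chr5:30012994-30013113, 44 bases), and the AP-1 motif TGANTCA in Mmp3 (chr9:7445702-7445821, 46 bases) and Mmp13 (chr9:7272394-7272513, 35 bases).
Cxcl1: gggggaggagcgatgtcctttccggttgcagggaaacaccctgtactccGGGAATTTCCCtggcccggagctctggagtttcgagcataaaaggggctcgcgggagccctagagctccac
Il6: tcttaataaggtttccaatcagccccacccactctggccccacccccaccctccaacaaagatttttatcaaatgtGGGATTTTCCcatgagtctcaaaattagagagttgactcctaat
Mmp3: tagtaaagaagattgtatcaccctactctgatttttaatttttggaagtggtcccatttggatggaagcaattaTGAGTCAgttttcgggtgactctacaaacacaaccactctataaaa
Mmp13: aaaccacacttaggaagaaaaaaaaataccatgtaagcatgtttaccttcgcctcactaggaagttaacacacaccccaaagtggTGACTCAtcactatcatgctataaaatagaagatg
Searched on both strands over windows of 300 bases, the NF-kB consensus lay in 6.96% of 32544 promoters, AP-1 in 7.79% and the C/EBP motif TTGCNNAA in 10.82%. These shares count single promoter sequences, whereas a listed gene was counted if any of its promoters held the motif, so the units differ. Among the chemokine and cytokine genes, 21 of 30 were matched to a RefSeq promoter, and 7 held the NF-kB consensus, Il6, Csf1, Cxcl1, Cxcl2, Cxcl3, Cxcl10 and Ccl20. AP-1 was in 7 of these 21 as well, and C/EBP in 5. Of 19 matched protease and inhibitor genes, 5 held AP-1, Mmp3, Mmp10, Mmp12, Mmp13 and Plaur, while 7 held C/EBP and 2 NF-kB. Of 18 matched effector genes, 9 held C/EBP, 4 NF-kB and 2 AP-1. Of 31 matched resident fibroblast genes, 2 held the NF-kB consensus, 2 held AP-1 and 5 held C/EBP. A match is a description of letters in a window, and binding was not measured.

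Messages for effector proteins by which fibroblasts shape inflammation were also more abundant in PD. In cHet 16 of 21 measured members were higher and 3 lower (median log2 fold 1.82), and in cKO 12 of 18 were higher and none lower (median 0.89). Ptx3 (chromosome 3, 66219910 to 66225805), a soluble pattern recognition protein, was at 37.4, 1948, 4.21 and 1025 CPM. Its ratios were 52.1 (35.4 to 79.9) in cHet and 244 (66.5 to 2025) in cKO, the latter against 2 UMIs. After thinning it was found in 2.94%, 40.7%, 0% and 23.8% of fibroblasts (11.8%, 46.7%, 2.74% and 26.4% unthinned) and in at most 0.236% of keratinocytes. Both PD libraries lay far above both controls.

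Tnfaip6, whose product TSG-6 remodels hyaluronan and limits neutrophil entry, was at 338, 2553, 202 and 476 CPM, with ratios of 7.55 (6.61 to 8.66) and 2.35 (1.75 to 3.17). Ptgs2, the inducible cyclooxygenase that makes prostaglandins, was at 115, 749, 10.5 and 365 CPM, with ratios of 6.51 (5.17 to 8.3) and 34.6 (14.2 to 110). Hmox1, the heme-degrading oxygenase of the oxidative stress list, was at 130, 1416, 23.2 and 301 CPM. Red blood cell messages were also seen in the cHet_PD fibroblasts, 220 CPM against at most 5.29 CPM elsewhere, and their part in the Hmox1 level was not tested.

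Of cytokine receptors and NF-kB, STAT and C/EBP components, 12 of 33 were higher in cHet and 5 lower (median 0.32), and 11 of 21 were higher in cKO and 1 lower (median 0.92). Il1rl1 (chromosome 1, 40429570 to 40465415), which encodes the interleukin-33 receptor ST2 and a secreted decoy form, was at 84.9, 3250, 65.3 and 571 CPM. The PD level was 38.3 times control (29.6 to 50.4) in cHet and 8.75 times (5.82 to 13.5) in cKO. It was found after thinning in 4.9%, 43.4%, 1.37% and 26.2% of fibroblasts (6.86%, 44.5%, 2.74% and 30.2% unthinned) and in at most 0.34% of keratinocytes. Its ligand gene Il33 was at 282, 265, 40 and 238 CPM, a ratio in cHet of 1.06 in favour of control (0.881 to 1.28). The receptor gene thus differed between the cHet libraries where the ligand gene did not differ beyond counting error. In cKO both genes were higher in PD, with log2 values of 2.95 for Il1rl1 and 2.31 for Il33, the latter not called. Cebpb, a factor of the C/EBP family, was at 61.9, 496, 12.6 and 233 CPM, and its cHet ratio was 8.02 (5.87 to 11.2).

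Interferon genes were mostly higher in PD in cHet. There 17 of 30 members were higher in PD and 3 lower (median log2 fold 0.85), while in cKO 4 of 18 were higher and 6 lower (median -0.32, or 0.015 when the cells were thinned), near the shares over all genes of that pair. The difference between genotypes was not tested, and fewer members were measured in cKO. Cxcl10, a chemokine for T cells, was at 24.5, 450, 75.8 and 296 CPM, and Iigp1, a guanosine triphosphatase of cell defence, at 31.7, 197, 116 and 132 CPM. For Iigp1 the cKO ratio was 1.14 (0.681 to 1.86), which spans no change. Rsad2, an antiviral enzyme, was at 0, 82.2, 10.5 and 21.1 CPM. Complement genes were mostly lower in PD, 9 of 15 in cHet (median -0.68) and 7 of 12 in cKO (median -1.30). C3, the central complement protein, was on the other side in both genotypes at 242, 755, 12.6 and 95.1 CPM, but was not called in cKO.

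**Figure D2:**
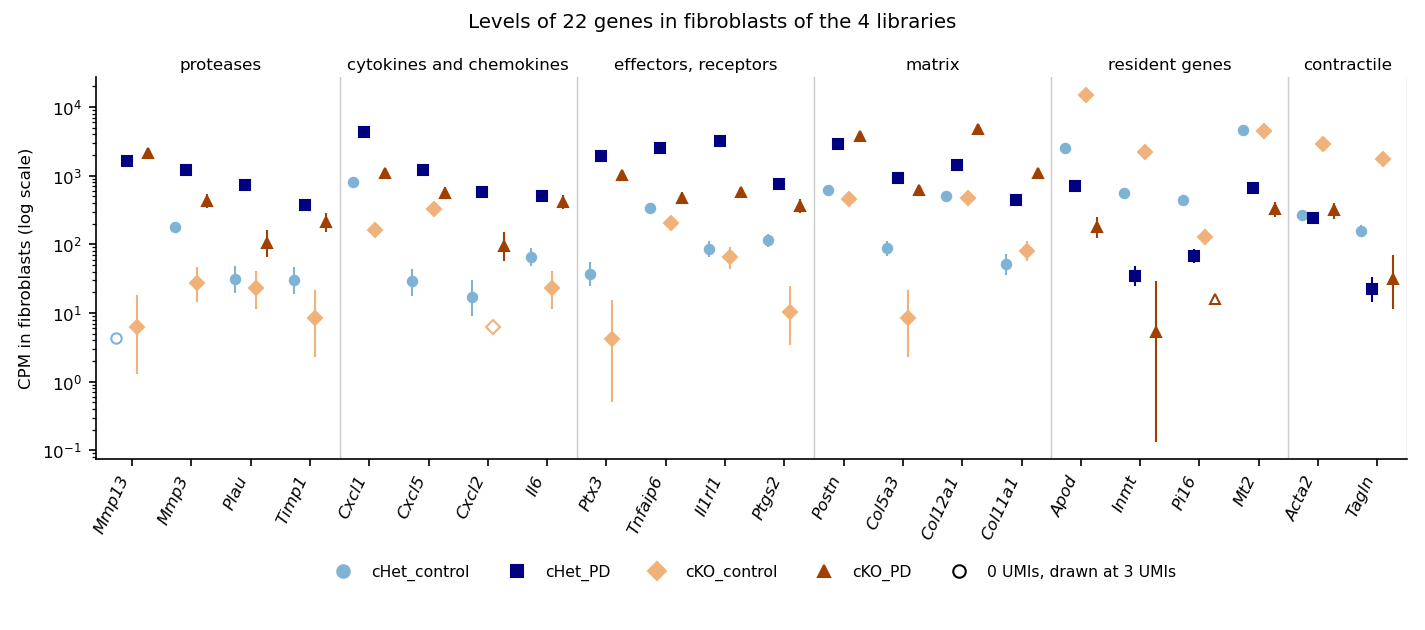
CPM of 22 genes in the fibroblasts of the 4 libraries on a log axis; bars are exact Poisson 95% intervals and open symbols mark 0 UMIs, drawn at the level of 3 UMIs. Inflammatory and protease genes are higher in both PD libraries (squares, triangles), Apod and Inmt are higher in both controls, and Acta2 and Tagln stand out in cKO_control alone.

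Genes of matrix-degrading proteases and their inhibitors were mostly higher in PD in both genotypes, 18 of 27 in cHet with 3 lower (median 0.94) and 16 of 24 in cKO with 2 lower (median 1.15). Mmp13 (ENSMUSG00000050578, chromosome 9, 7272514 to 7283331), a collagenase of fibroblasts, hypertrophic cartilage and bone, was at 0 CPM in cHet_control, 1608 in cHet_PD, 6.32 in cKO_control and 2130 in cKO_PD. That is at least 373-fold higher in cHet against the 3 UMIs a count of 0 allows, and 337-fold (115 to 1642) in cKO, where the control held 3 UMIs. Its UMIs were unevenly spread: the 10% of cells with the most Mmp13 held 83.2% of its UMIs in cHet_PD and 86.8% in cKO_PD. After thinning, 23.3% and 31.0% of fibroblasts had a UMI in the PD libraries (26.9% and 35.8% unthinned), against 1.44% and 0.206% of keratinocytes.

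Mmp3, the stromelysin that activates other proteases, was at 178, 1190, 27.4 and 428 CPM, with ratios of 6.67 (5.54 to 8.08) and 15.6 (8.65 to 30.6). Plau, the urokinase that makes plasmin, was at 31.7, 740, 23.2 and 106 CPM. Its ratio was 23.4 (15.3 to 37.5) in cHet, and in cKO 4.56 (2.08 to 10.5) on too few UMIs to be called. Timp1, an inhibitor of these enzymes, was at 30.2, 376, 8.42 and 211 CPM, higher in PD along with the proteases, although not called in cKO. Its relatives Timp2 and Timp3 went the other way. The log2 PD-over-control values in cHet and cKO were -1.15 and -0.83 for Timp2, the latter not called, and -2.01 and -2.09 for Timp3. The inhibitors thus did not move together. Mmp10 was seen in cHet_PD alone, at 108 CPM, and 0 UMIs in cKO_PD still allow 15.9 CPM.

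Collagen chains outside the rule were higher in PD in both genotypes, 13 of 16 in cHet with 2 lower (median 1.24) and 14 of 16 in cKO with 1 lower (median 2.36). The rule chose cells by other collagen genes, which run together with these, so the counts are no independent evidence. Col12a1, a collagen on the surface of fibrils under load, was at 499, 1422, 465 and 4847 CPM, with ratios of 2.85 (2.53 to 3.21) and 10.4 (8.98 to 12.1). Col5a3, a regulator of fibril diameter, was at 87.8, 923, 8.42 and 608 CPM, with ratios of 10.5 (8.12 to 13.9) and 72.2 (27.4 to 269). Col11a1, a chain of cartilage and of activated fibroblasts, was at 51.8, 446, 80.0 and 1078 CPM.

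Periostin, a matrix protein of the periodontal ligament, had its gene Postn (chromosome 3, 54361109 to 54391037) at 619, 2935, 451 and 3743 CPM. The ratios were 4.74 (4.29 to 5.26) and 8.31 (7.12 to 9.72). Lox, which crosslinks collagen, was at 351, 1475, 173 and 941 CPM, Cthrc1, a secreted protein of remodelling matrix, at 89.2, 443, 8.42 and 402 CPM, and Lrrc15, a membrane protein of activated fibroblasts, at 79.1, 435, 48.4 and 523 CPM. In all 3 both PD libraries exceeded both controls. Other matrix genes did not move together: of elastic fibre, proteoglycan and glycoprotein genes, 8 of 34 were higher and 18 lower in cHet (median -0.73), while 17 of 33 were higher and 13 lower in cKO (median 0.71, and -0.201 without the bone filter).

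Genes that couple fibroblasts to bone gave small counts. Tnfsf11, which encodes RANKL, the signal that makes osteoclasts, was at 0, 58, 2 and 9 UMIs, or 0, 54.2, 4.21 and 47.6 CPM. Both PD libraries were above their controls, at least 12.6-fold in cHet and 11.3-fold in cKO (2.34 to 107), the latter on 9 UMIs and not called. Tnfrsf11b, which encodes the decoy osteoprotegerin, was at 18.7, 109, 25.3 and 63.4 CPM, with ratios of 5.84 (3.29 to 11.3) and 2.51 (1.03 to 6.11), the latter not called. Grem1, an antagonist of bone morphogenetic proteins, was at 50.4, 467, 0 and 344 CPM, 9.28-fold higher in cHet (6.58 to 13.5) and at least 54.4-fold in cKO. The list of bone-resorption, Wnt and BMP regulators as a whole went the other way in cHet, with 4 of 22 higher and 13 lower (median -1.24), and in cKO 5 of 18 were higher and 8 lower (median -0.44, or 0.011 when thinned). Sfrp1, a secreted Wnt inhibitor, was at 327, 107, 1343 and 47.6 CPM, and Gdf10, a ligand of the BMP family, at 315, 27.1, 939 and 26.4 CPM. In both genes the control libraries were the high ones.

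Genes of resident connective tissue fibroblasts were lower in PD, 26 of 40 in cHet with 4 higher (median -1.23) and 20 of 33 in cKO with 7 higher (median -1.24). Apod, a lipid-binding apolipoprotein, was at 2498, 712, 15002 and 180 CPM, which is 3.51-fold lower in PD in cHet (3.22 to 3.83) and 83.5-fold lower in cKO (59.7 to 121). The size of the latter rests on cKO_control, the highest library by far. Inmt, a methyltransferase of small amines, was at 551, 34.6, 2228 and 5.29 CPM, 15.9-fold lower in cHet (11.4 to 23) and 421-fold lower in cKO (75.5 to 16661) on 1 UMI. Pi16, a marker of fibroblasts around vessels, was at 440, 68.2, 128 and 0 CPM, and Mfap4, a microfibril protein, at 1593, 190, 2603 and 63.4 CPM.

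Ptn, which encodes the growth factor pleiotrophin, was at 371, 15.0, 1506 and 15.9 CPM, and its relative Mdk at 135, 2.8, 518 and 58.1 CPM. Tnxb, a tenascin of loose connective tissue, was at 459, 33.6, 33.7 and 5.29 CPM, so that cKO_control already equalled cHet_PD. Angptl7 was read in cHet_control alone, at 335 CPM. Of steroid and circadian response genes, 9 of 15 were lower in cHet (median -0.78) and 5 of 13 in cKO (median -0.30, but 0.525 when the rule was applied to thinned cells and 0.353 without the tracer cells). Txnip, an arrestin-like regulator of glucose uptake, was at 538, 86.0, 467 and 100 CPM, and Mt2, a metallothionein, at 4570, 658, 4411 and 328 CPM. Keratinocytes of the same libraries showed the same order, 265, 67.4, 189 and 88.0 CPM for Txnip and 6609, 703, 4611 and 614 CPM for Mt2, so these differences were not limited to fibroblasts.

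The bone filter changed the cKO_PD values of some genes and not of others. Without it, 110 of the 158 genes called higher in the cKO pair and 420 of the 463 called lower kept their call, and the totals were 227 higher and 537 lower. Spp1, the bone matrix protein osteopontin, was at 566 CPM in the filtered fibroblasts, 3845 CPM with the bone cells put back and 7860 CPM in the 52 bone-forming cells of cKO_PD, and 7.42% of its UMIs lay in the filtered cells. Runx2, the master factor of bone formation, still stood at 254 CPM after filtering against 91.6 CPM in cHet_PD, and at 607 CPM in bone-forming cells. Of 12 genes of the osteogenic and ligament list, 8 were at least 1.5-fold higher in cKO_PD than in cHet_PD and none lower.

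Mmp13 in cKO_PD was 2130 CPM with the filter, 3533 CPM without it and 4669 CPM in the bone-forming cells, so it was read on both sides of the filter. After thinning, 13 filtered cells held Mmp13. Alpl was found in 30.8% of these against 3.45% of the rest, and Runx2 in 38.5% against 24.1%. The part of bone-lineage cells that passed the filter in the Mmp13 level was not tested. Mmp3 was at 428 CPM with the filter and at 0 UMIs in bone-forming cells. Postn, Col12a1, Ptx3 and Il1rl1 were each higher in the filtered cells than with bone cells put back.

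**Figure D3:**
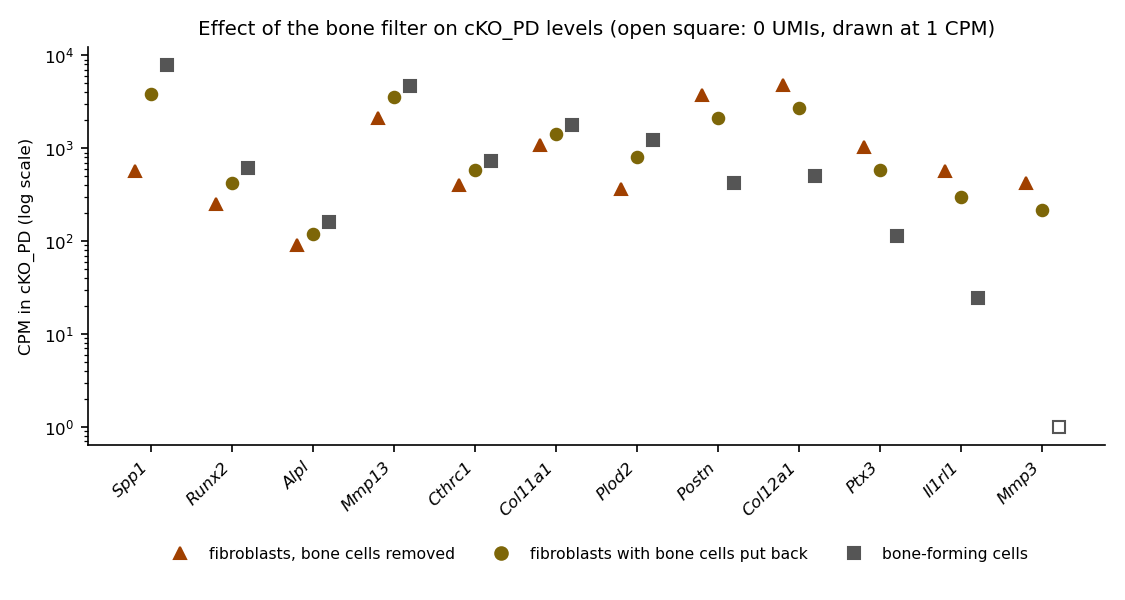
CPM of 12 genes in cKO_PD on a log axis, in fibroblasts with bone cells removed (triangles), in fibroblasts with bone cells put back (circles) and in bone-forming cells (squares). Spp1, Mmp13 and Runx2 are higher with bone cells put back (Mmp13 3533 against 2130 CPM), and Postn, Col12a1, Ptx3, Il1rl1 and Mmp3 are lower.

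Between the 2 PD libraries, more genes were called lower than higher in cKO_PD under the minimum of 50 UMIs, but not without it, when 485 were higher and 452 lower. This comparison and that of the controls reuse the libraries of the PD comparisons and are not independent of them. Of 3489 genes, 82 (2.35%) were called higher in cKO_PD and 338 (9.69%) lower, and without the bone filter 37 of the 82 and 257 of the 338 kept their call. Under the looser rule 11.5% of 6821 genes were higher and 21.4% lower, with a median of -0.10, and TMM scaling moved values by -0.12. Chemokines and cytokines had 1 of 20 members higher and 13 lower (median -1.83, or -0.95 with genes at 0 set to their bound), resident genes 5 of 37 higher and 27 lower (median -1.13), and interferon genes 1 of 29 higher and 15 lower (median -0.69). Cxcl1 was 4.0-fold lower in cKO_PD (3.47 to 4.62), Tnfaip6 5.37-fold (4.35 to 6.7), Il1rl1 5.69-fold (4.7 to 6.96) and Ptx3 1.9-fold (1.64 to 2.21). Cilp, a cartilage and tendon matrix protein, was at 734 CPM in cHet_PD and 31.7 in cKO_PD, 23.2-fold lower (10.6 to 63.3). The cKO_PD fibroblasts were fewer and shallower, and S100a8 or S100a9 was in 14 of them. With the cells that carried those messages left out, the log2 value of Cxcl1 was -1.90 against -1.99 and that of Il1rl1 -2.56 against -2.49.

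Matrix and signalling genes were among those higher in cKO_PD than in cHet_PD. Fmod, the collagen-binding proteoglycan fibromodulin of tendon and ligament, was at 232, 21.5, 175 and 677 CPM, 31.5-fold higher in cKO_PD than in cHet_PD (20.1 to 51.4). Chondrocytes of cKO_PD held 1944 CPM of Fmod, and the part of the chondrocyte messages in its level was not tested. Col12a1 was 3.41-fold higher (3.14 to 3.7) and Col11a1 2.42-fold (2.04 to 2.86), both already above control in cHet_PD. Igf1, an insulin-like growth factor, was at 354, 105, 484 and 581 CPM and its binding protein gene Igfbp5 at 1888, 737, 3662 and 3214 CPM. For both, cHet_PD was the low library and cKO_PD lay near its own control, with a PD-to-control ratio of 1.2 for Igf1 in cKO (0.948 to 1.51). Enpp2, the enzyme autotaxin that makes lysophosphatidic acid, was at 619, 156, 291 and 835 CPM, and Wif1, a Wnt inhibitor, at 371, 79.4, 1276 and 470 CPM.

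The 2 control libraries differed as well. Of 2630 genes, 184 (7.0%) were called higher in cKO_control and 281 (10.7%) lower. Under the looser rule 16.5% of 7338 genes were higher and 13.4% lower, with a median of 0.06, and TMM scaling moved values by -0.10. Among the named genes, the largest log2 folds in favour of cKO_control were those of Mup4, Prxl2a, Obp1a and Obp1b. TGF-beta pathway and contractile genes did not move together: of 27 measured, 11 were higher in cKO_control and 9 lower (median 0.016). Of the 23 with 50 UMIs, 8 were called higher and 4 lower. On the higher side, Acta2, smooth muscle actin, was at 268, 245, 2920 and 312 CPM. Tagln, an actin-binding protein of the same cells, was at 155, 22.4, 1756 and 31.7 CPM. Angpt2, a vessel-destabilising ligand, was at 20.1, 0.934, 828 and 0 CPM, and Cldn11, a tight junction protein, at 23, 0.934, 491 and 0 CPM. The 8 mural markers summed to 381 CPM in cHet_control and 301 CPM in cKO_control, but the smooth muscle genes Myh11, among those 8, and Cnn1 were higher in cKO_control, at 145 against 64.8 CPM and 116 against 5.76 CPM. The part of smooth muscle messages in these levels was not tested. With tracer cells left out, Acta2 was still higher by 3.27 on the log2 scale against 3.40.

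In cKO_control the messages of Acta2 and Tagln lay largely in the same cells. After thinning, 44 of 73 fibroblasts held an Acta2 UMI, and Tagln was found in 75.0% of them against 27.6% of the rest, Angpt2 in 75.0% against 6.9% and Apod in 100% against 75.9%. Myh11 was found in 15.9% of the Acta2 cells and in 0% of the rest. Mup4, of the secretion genes, was in 15.9% of the Acta2 cells and 24.1% of the rest. Lower in cKO_control than in cHet_control were Thbs4, a thrombospondin of tendon (10.5 against 555 CPM, 52.8-fold, 22.4 to 163), and Fndc1, a fibronectin-domain protein (25.3 against 459 CPM, 18.2-fold, 10.3 to 35.5). Of 40 resident genes, 26 were lower in cKO_control and 6 higher (median -1.20), and of 32 immediate early genes 20 were lower and none higher (median -0.75). Ratios of PD to control in the cKO genotype therefore start from a control that differs from the cHet control, and the cell states sampled and the genotype cannot be told apart.

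Panels of 4 genes, counted in each cell after thinning to 1500 UMIs and scored where 2 or more UMIs were present, show how these messages were spread over cells. A panel is a range of a count and no cell type, and panels overlap. The Apod-Inmt panel held 67.6% of cHet_control fibroblasts (57.7 to 76.6), 27% of cHet_PD (20.8 to 33.9), 95.9% of cKO_control (88.5 to 99.1) and 26.2% of cKO_PD (13.9 to 42.0), or 88.2%, 48.0%, 100% and 35.8% unthinned. The Ptx3-Il1rl1 panel held 23.5% (15.7 to 33.0), 78.3% (71.7 to 84.0), 8.22% (3.08 to 17.0) and 38.1% (23.6 to 54.4), or 55.9%, 82.4%, 28.8% and 54.7% unthinned. The shares of both panels in keratinocytes were at most 0.864% after thinning. After thinning, the intervals of PD and control did not overlap for either panel in either genotype. Unthinned, those of the Ptx3-Il1rl1 panel in cKO did, 18.77 to 40.55 in control and 40.45 to 68.44 in PD. The panels were chosen with earlier results of these data known, and the intervals count cells of 1 library. Their separation is therefore a description and no support.

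The Cxcl1-Il6 panel held 24.5%, 62.4%, 13.7% and 38.1% of fibroblasts (40.2%, 72.2%, 39.7% and 45.3% unthinned), against 2.58%, 7.93%, 2.89% and 10.4% of keratinocytes. The Mmp13-Tnfsf11 panel held 1.96%, 40.7%, 1.37% and 38.1% (8.82%, 50.7%, 6.85% and 43.4% unthinned). The thinned intervals of the PD libraries, 33.7 to 48.1 in cHet_PD and 23.6 to 54.4 in cKO_PD, overlapped. They count cells of 1 library each, so the overlap cannot show that the genotypes are alike. The Aspn-Postn panel, of periodontal ligament genes, held 54.9%, 58.2%, 19.2% and 81.0%, but 81.4%, 65.2%, 45.2% and 81.1% unthinned, an order that changes with depth. The contractile Acta2-Tagln panel held 13.7%, 6.35%, 63.0% and 9.52% (25.5%, 15.4%, 75.3% and 13.2% unthinned). Runx2-Alpl, an osteogenic panel, held 3.92%, 4.23%, 1.37% and 14.3% (10.8%, 15.4%, 8.22% and 37.7% unthinned), the 14.3% being 6 of 42 cells. Keratinocytes gave 1.37%, 1.68%, 1.98% and 2.16% when thinned and 11.3%, 8.31%, 14.1% and 6.9% unthinned. Both controls were thus below their keratinocytes unthinned, and cKO_control also when thinned.

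**Figure D4:**
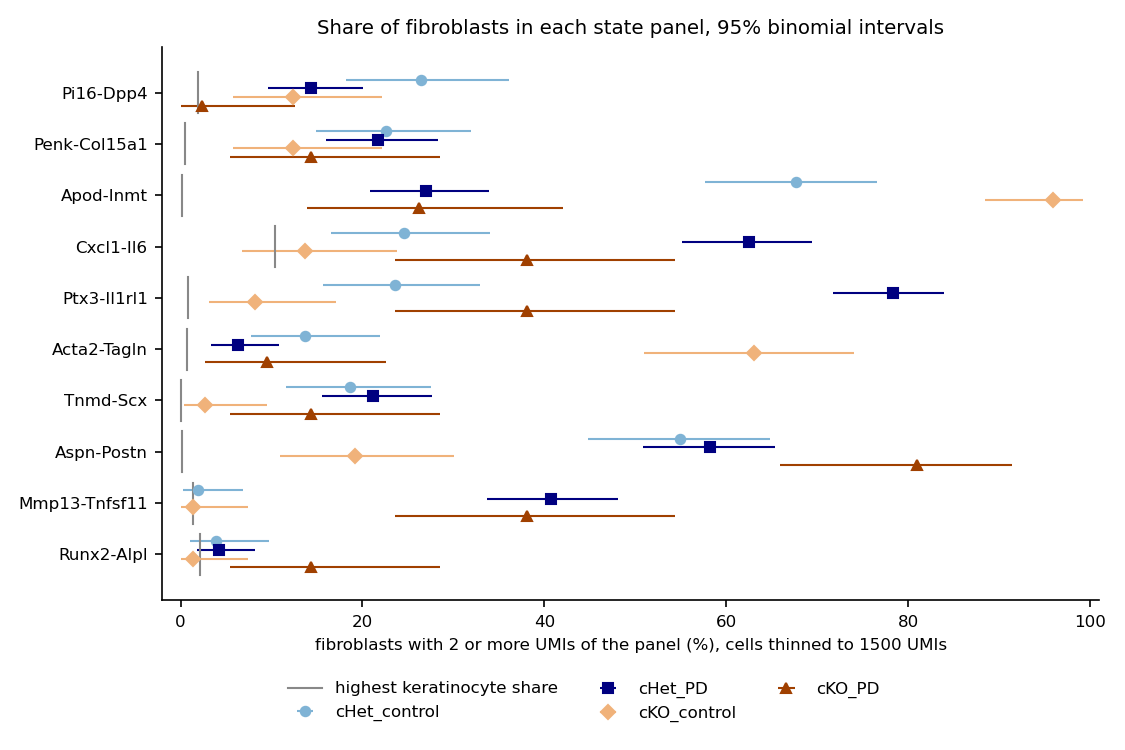
Share of fibroblasts with 2 or more UMIs of each panel after thinning to 1500 UMIs, in percent, by library, with exact binomial 95% intervals; grey ticks give the highest keratinocyte share of the 4 libraries. The Ptx3-Il1rl1 share is 78.3% in cHet_PD and 38.1% in cKO_PD, and the Acta2-Tagln share is 63.0% in cKO_control and at most 13.7% elsewhere.

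In cHet_PD the inflammatory messages were not all in the same cells. Of 189 thinned fibroblasts, 44 held Mmp13, and Il1rl1 was found in 86.4% of those against 30.3% of the other 145, Postn in 93.2% against 49.7% and Lrrc15 in 61.4% against 22.8%. Ptx3 went the other way, 22.7% against 46.2%, and Cxcl1 was alike, 65.9% against 66.9%. Cells with Il1rl1 held Cxcl5 in 54.9% of 82 cells against 3.74% of 107 and Pi16 in 1.22% against 13.1%. In cKO_PD 13 of 42 cells held Mmp13. There Il1rl1 was found in 23.1% of them against 27.6% of the rest, and Alpl, an enzyme of mineralising cells, in 30.8% against 3.45%. These shares describe cells of 1 library each and carry no test.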

How the data were processed

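The deposited values are raw UMI counts per gene and barcode. Per the submitters' processing notes, the authors used fastp, STARsolo 2.7.10a and the mouse build mm10. The labels' protocols describe BD Rhapsody whole-transcriptome libraries while the description label names 10x Genomics. The libraries held 58702911 (cHet_control), 36231795 (cHet_PD), 62914870 (cKO_control) and 21368197 (cKO_PD) UMIs over 8767, 9072, 9331 and 6684 barcodes. No doublet caller was run. The cell rule was applied to barcodes with at least 200 genes and at most 20% mitochondrial UMIs, and the chosen cells' UMIs were added up within each library and scaled to CPM.

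Genes were called at 2-fold with 10 CPM added, 50 UMIs in 1 library and an exact conditional binomial 95% interval that excluded 1. No p-value was computed, since each group is 1 library. The members, the 22 gene lists and the 12 panels were chosen with earlier results of these data known. Named genes were the 12 largest in each direction and pair with UMIs in 10% of cells and at least 0.2 of the highest compared class, plus up to 4 per list and a fixed set. The text gives a part of them, and 1 gene is left out as not reported here. Ccl2 and Ccl7 were picked after their values were seen. Scripts used Python 3.11.15, numpy 2.4.6, scipy 1.17.1, pandas 2.3.3 and edgeR 4.0.16. The code for the calls was run on simulated Poisson counts with known folds. Those counts hold counting error only, so the run says nothing on differences between cells or animals. The alternatives were 13 planned settings of scaling, depth, filters and thresholds and 1 added later. Gene positions are from GENCODE M21 and promoters from RefSeq (GRCm38.p6).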

Additional observations from a re-analysis of the deposited data

Results flagged for a closer look

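In 7 of the named genes the fibroblasts of the 2 genotypes moved in opposite directions between control and PD, each past 2-fold. The log2 PD-over-control values in cHet and cKO were -2.94 and 1.89 for Fmod, -2.62 and 2.54 for Chodl, -2.89 and 1.71 for Ccn5, -1.92 and 1.49 for Enpp2, -1.66 and 1.35 for Omd, -1.16 and 3.39 for Cyp26b1, and -1.99 and 2.68 for Dkk2. Fmod and Omd encode small leucine-rich proteoglycans, Ccn5 a matricellular protein, Cyp26b1 the enzyme that breaks down retinoic acid and Dkk2 a Wnt antagonist. The difference between genotypes was not tested, since each group is 1 library. With bone cells put back the cKO values were 0.22 for Fmod, 0.355 for Enpp2, 0.691 for Omd, 1.022 for Ccn5, 1.634 for Chodl, 1.765 for Dkk2 and 2.321 for Cyp26b1.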

How the results depend on the processing

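No paired analysis was possible because every group is a single library, so the groups share fewer than 2 replicate numbers. Of the alternatives, depth and the cell filters moved the counts of called genes most, and the cause was not tested beyond their own construction (fewer cells, fewer UMIs or fewer genes). Counts are given as higher and lower in PD for cHet, in PD for cKO, in cKO_PD over cHet_PD and in cKO_control over cHet_control. With the fibroblasts thinned to 1500 UMIs they were 208 and 111, 49 and 88, 17 and 132, and 39 and 71. With the rule applied after thinning they were 199 and 110, 50 and 76, 20 and 145, and 35 and 75. Without the minimum of 50 UMIs they were 736 and 1135 and 761 and 1117 in the PD comparisons, 485 and 452 between the PD libraries, and 653 and 598 between controls. With no UMI of Ptprc, Pecam1, Cdh5 or Rgs5 and under 2 of Krt5 and Krt14, 314 genes were lower in cHet, 263 lower in cKO and 120 higher in cKO_control. Without cells holding tracer or granulocyte UMIs, a setting chosen after seeing the data, 97 were higher and 119 lower in cKO and 93 higher in cKO_control. The share of calls that were higher was 50.3% in cHet, but 65.2% and 64.4% under the thinned settings, 61.2% under the strict cell filter, 60.0% under TMM scaling and 39.3% without the minimum; in cKO it was 25.4%, but 35.8%, 39.7%, 40.5% without the minimum and 44.9% without tracer cells. Between the PD libraries it was 19.5%, but 51.8% without the minimum, so the larger side turned.

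The log2 ratio of fibroblast shares in cHet, 0.97, was 1.49 under the strict cell filter and 0.52 with a mitochondrial cap of 10%. In cKO, -0.24 turned to 0.47 without the bone filter, 0.38 under the strict filter and 0.039 with 30 collagen UMIs, and between the PD libraries -1.66 was -0.986 without the bone filter. Medians that changed sign were, when thinned, 0.011 for bone regulators, 0.32 for growth factors and 0.015 for interferon genes in cKO, -0.30 for cell cycle genes in cHet and 0.46 for chemokines between controls. With the rule after thinning they were -0.51 for cell cycle genes in cHet, and 0.032 for growth factors and 0.53 for steroid genes in cKO. Without tracer cells, cell cycle genes were at -0.11 and steroid genes at 0.35 in cKO, and without the bone filter elastic and proteoglycan matrix was at -0.20. Single genes that changed sign were Cilp between controls (0.27) and Hhip in cKO (1.02) without tracer cells and Col27a1 in cHet with the rule after thinning (-0.54).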
